A study of Mus musculus with 8 samples.

Results

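The genes described here are the 41 mouse genes of the nuclear receptor superfamily that were taken as possible partners of SRC-3, chosen by name from the receptor subfamilies for hormones, retinoids, lipids and orphan receptors. The orphan receptors of the Nr4a subfamily were not part of the choice. All 41 were found in a table of 55487 genes, and 16 of them reached at least 1 FPKM in at least 2 of the 8 libraries. FPKM count fragments per kilobase of a transcript after scaling to sequencing depth, so levels of different genes can be compared per length. That floor of 1 FPKM in 2 libraries was also the filter for the statistical tests, which ran on 14134 genes.

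Nuclear receptors are transcription factors that bind DNA at short half-sites, alone, as pairs of the same receptor, or as pairs with a retinoid X receptor. Many are switched by a small lipid-soluble ligand, such as a steroid, thyroid hormone, retinoic acid or an oxysterol, while orphan receptors have no known natural ligand or work without one. SRC-3, encoded by Ncoa3, is a p160 coactivator that docks on the ligand-binding domain of an active receptor through short leucine-rich LXXLL motifs and brings in histone acetyltransferases. Only transcript levels were measured here, and neither binding between SRC-3 and a receptor nor receptor activity was.

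Tregs, the CD4 T cells that restrain immune responses, were taken from the spleens of mice without tumors, and their total RNA was amplified with SMART-Seq v4. The 8 libraries fall into 4 groups of 2. WT YFP+ (numbers 23 and 24) holds YFP+ Tregs of a C57BL/6 wild-type control. The SRC-3 KO mice gave KO YFP+, their YFP+ Tregs, and KO YFP-, their YFP- Tregs, each with a library 84 and a library 85. Their background mixes C57BL/6 with 129SvEv. SRC-3ff (numbers 68 and 72), whose name denotes floxed SRC-3, is given as the second wild-type control, of 129SvEv mice. Its label holds no YFP sort. The series set SRC-3 KO Tregs beside wild-type Tregs with the anti-tumor effect of the KO cells in view. The sources used here do not give what YFP marks, what drives the deletion, which part of the gene is lost, the age of the mice or the time of day of collection. Strain therefore changes with genotype in each comparison of KO with a control, and only KO YFP+ against KO YFP- keeps strain and genotype label the same.

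The targeted gene was low in the YFP+ libraries labelled KO. Ncoa3 stood at 46.3 and 42.7 FPKM in WT YFP+, 10.9 and 10.2 in KO YFP+, 32.1 and 32.2 in KO YFP- and, for SRC-3ff, 49.7 and 35.5. KO YFP+ was below every other library, and its log2 difference from WT YFP+ was -1.98 (SE 0.158, limma adjusted p = 0.0034). In KO YFP- the transcript was largely kept, though both libraries lay below every WT YFP+ and SRC-3ff library. Its log2 difference from WT YFP+ was -0.46 (95% interval -0.83 to -0.08) and did not pass (limma adjusted p = 0.134). That from SRC-3ff was -0.38 and did not pass either (limma adjusted p = 0.271). The Treg factor Foxp3 was present in all 8 libraries, at 19.9 to 31.0 FPKM in the 4 YFP+ libraries and 113 to 205 FPKM in the other 4. The 8 Treg markers, all past the floor, summed to 829 to 1228 FPKM per library, but they did not share one order. Il2ra (the interleukin 2 receptor alpha chain, CD25) was at 92.4 to 113 FPKM in the YFP+ libraries, 43.5 and 42.8 in KO YFP- and, for SRC-3ff, 107 and 83.1. Ikzf4 (the transcription factor Eos) was at 22.4 to 27.4 FPKM in the YFP+ libraries and 10.7 to 16.2 FPKM in the others. The summed FPKM of a library was 384107 to 416393, and the number of sequenced fragments behind it is unknown.

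Markers of several other cell types were lower in the YFP+ libraries. The 8 NK cell markers, all past the floor, summed to 29.9 to 62.3 FPKM in the YFP+ libraries and 138 to 495 FPKM in the others, and Ncr1 was listed at 0 in every YFP+ library. The 2 gamma delta T cell markers in the table summed to 2.03 to 3.92 against 44.9 to 106 FPKM, and the 6 plasma cell markers to 89.5 to 130 against 353 to 962 FPKM. B cell markers (4 of 8 past the floor) summed to 14.0 to 23.0 against 30.6 to 51.2 FPKM, macrophage and monocyte markers (2 of 11) to 0.878 to 2.02 against 3.97 to 6.52 FPKM, and dendritic cell markers (1 of 5) to 0.260 to 0.781 against 2.46 to 3.90 FPKM. The opposite order was seen for 6 genes of resting T cells, at 1533 to 1957 FPKM in the YFP+ libraries and 720 to 1283 FPKM in the others, and for CD8 T cell markers (1 of 2 past the floor), at 7.86 to 12.4 against 4.16 to 5.72 FPKM. The library SRC-3ff 72 stood apart from the rest in its neutrophil markers (7.03 FPKM summed against at most 0.648 elsewhere, with Ly6g listed at 0 throughout) and its erythroid markers (11.6 FPKM against at most 3.00). Platelet markers did not exceed 0.252 FPKM summed, with Ppbp at 0 throughout. Those of stroma and endothelium were also higher in the YFP+ libraries, summing to 20.1 to 27.0 FPKM against 13.4 to 20.0 FPKM in the others, mostly from Pecam1.

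Of the 41 receptor genes, 39.0% passed the floor, beside 46.6% of the 21936 protein-coding genes. The other 25 stayed under it, 7 of them listed at 0 in every library. Those that passed had a median level of 8.62 FPKM over the 8 libraries, beside 8.21 FPKM for all genes past the floor, and 14 of them had at least 1 FPKM in each library. Together the 41 genes gave 191 to 287 FPKM per library. A value of 0 is read here as listed at 0, because the 13 protein-coding genes of the mitochondrial genome, which every cell uses, are also at 0 in all 8 libraries.

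The receptor with the highest level in every library was Nr1h2 (LXR beta, an oxysterol receptor that governs cholesterol export; ENSMUSG00000060601, GRCm38 chromosome 7, 44549616 to 44553951, minus strand). Its mean was 57.2 FPKM, above 90.6% of the genes past the floor, and its highest library was only 1.30 times its lowest. Nr1h3, which encodes LXR alpha, did not exceed 0.664 FPKM. Rxrb, a retinoid X receptor and common pairing partner, followed at 27.5 to 36.4 FPKM. Rxra, a second gene of that family, was lower than Rxrb in every library at 0.924 to 6.15 FPKM, and the third, Rxrg, did not exceed 0.00632 FPKM. The ratio of Rxrb to Rxra was 37.5 and 9.65 in WT YFP+, 11.7 and 13.5 in KO YFP+, 5.97 and 6.92 in KO YFP- and, for SRC-3ff, 6.79 and 5.63.

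Of the retinoic acid receptors, Rara was at 21.7 to 30.3 FPKM and Rarg at 8.02 to 15.8 FPKM, while Rarb did not exceed 0.0910 FPKM. Nr3c1, the glucocorticoid receptor, was at 15.7 to 27.8 FPKM. It was the only steroid receptor of the set past the floor: Nr3c2, the mineralocorticoid receptor, reached 1.72 FPKM in KO YFP- 85 alone, and the estrogen receptors Esr1 and Esr2 and the progesterone receptor Pgr had highest libraries of 0.176, 0.0239 and 0.00921 FPKM. The thyroid hormone receptor Thra passed at 1.02 to 9.09 FPKM, with Thrb at no more than 0.288 FPKM. Vdr, the vitamin D receptor, was under the floor, at 0.985 FPKM in KO YFP- 84 and at most 0.269 FPKM in the other 7 libraries.

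Among the lipid-sensing PPARs, Ppard (fatty acid responsive) was the lowest receptor past the floor at 0.242 to 1.35 FPKM, reaching 1 FPKM in 1 library of KO YFP+ and 1 of KO YFP-. Pparg had a highest library of 0.729 FPKM and Ppara one of 0.0295 FPKM. Of the orphan and clock receptors, Rora, Nr1d1, Nr1d2, Esrra, Nr2c1, Nr2c2 and Nr2f6 passed the floor. So did Nr1i3 (the xenobiotic receptor CAR), at 2.51 to 3.61 FPKM, but 74.9% of its annotated exon bases lie opposite exons of Tomm40l. Since the kit does not mark strand and the counting is not stated, reads of that pair cannot be told apart.

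The order of the mean levels below Nr1h2 was Rxrb, Rora, Rara, Nr3c1, Nr1d1, Rarg, Nr1d2, Esrra, Thra, Nr2c2, Rxra, Nr2f6, Nr1i3, Nr2c1 and Ppard. Neighbours in it overlapped in their library ranges except at 2 steps. Every library of Nr1h2 (lowest 49.8 FPKM) was above every library of any other receptor (highest 45.9 FPKM, Rora). Ppard at the other end had no library as high as the lowest of Nr2c1, 1.99 FPKM.

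**Figure D1:**
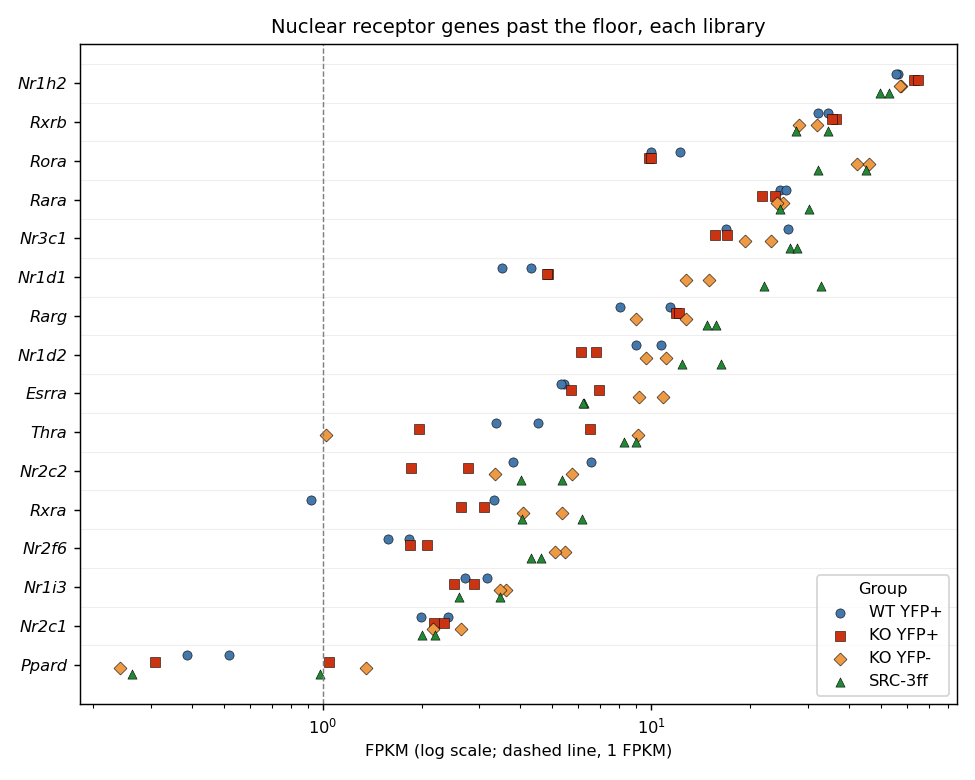
Level of the 16 nuclear receptor genes past the floor in each of the 8 libraries (x axis, FPKM on a log scale; dashed line at 1 FPKM), ordered by mean level, with color and symbol giving the group. Nr1h2 is the highest in each library, and for Rora, Nr1d1 and Nr2f6 the WT YFP+ and KO YFP+ points lie to the left of the KO YFP- and SRC-3ff points.

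The remaining receptors under the floor were the orphan receptors Nr2e3, Nr6a1, Rorb, Nr5a2, Esrrb, Esrrg and Nr5a1, whose highest libraries lay between 3e-06 and 0.0211 FPKM. Those listed at 0 in all libraries were Nr1h4 (the bile acid receptor FXR), Nr1i2 (the xenobiotic receptor PXR), Nr2e1, Nr2f1, Nr2f2, Nr0b1 and Nr0b2. No fold change is given for any of these genes.

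The first comparison asked how receptor transcripts differed between YFP+ Tregs of SRC-3 KO and control mice. None of the 16 receptors passed between KO YFP+ and WT YFP+ (0 of 16 with limma at an adjusted p of 0.05), where 0.757% of all genes tested did. At an unadjusted p below 0.05 there were 2, Nr1d2 and Nr2c2, where 10.4% of all genes were. The groups did not overlap for 9 of the 16 receptors, nor for 40.0% of all genes tested. The median log2 difference was 0.07 over the 16 receptors and 0.01 over all genes tested. The 95% interval of the difference lay within 1 log2 unit of 0 for 12 of the 16, the exceptions being Rxra, Thra, Nr2c2 and Ppard.

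Nr1h2, the most abundant, was at 56.2 and 55.7 FPKM in WT YFP+ and at 63.2 and 64.6 FPKM in KO YFP+. The pairs did not overlap, and the log2 difference was 0.19 (SE 0.0798, limma adjusted p = 0.48). Rxrb differed by 0.11 (95% interval -0.20 to 0.41), Rara by -0.15 (-0.43 to 0.14) and Nr3c1 by -0.34 (-0.82 to 0.13) on the same scale. These intervals are narrow enough to leave out a doubling or halving of the 4 transcripts on the log2(FPKM + 1) scale.

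Nr1d2 (REV-ERB beta, a heme-binding repressor in the circadian clock; ENSMUSG00000021775, GRCm38 chromosome 14, 18204054 to 18239127, minus strand) was at 8.99 and 10.7 FPKM in WT YFP+, 6.77 and 6.13 in KO YFP+, 9.62 and 11.1 in KO YFP- and, for SRC-3ff, 12.4 and 16.3. KO YFP+ held the lowest levels of the 8 libraries. Its log2 difference from WT YFP+ was -0.54 (SE 0.169, 95% interval -0.94 to -0.14, limma adjusted p = 0.339), which did not pass. Nr2c2 (the orphan receptor TR4) stood at 6.56 and 3.80 FPKM in WT YFP+ against 1.86 and 2.77 in KO YFP+, a log2 difference of -0.87 (95% interval -1.62 to -0.13, limma adjusted p = 0.408), and 30.7% of its exon bases lie opposite Mrps25. Its relative Nr2c1 (TR2) was at 1.99 to 2.64 FPKM in all libraries.

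**Figure D2:**
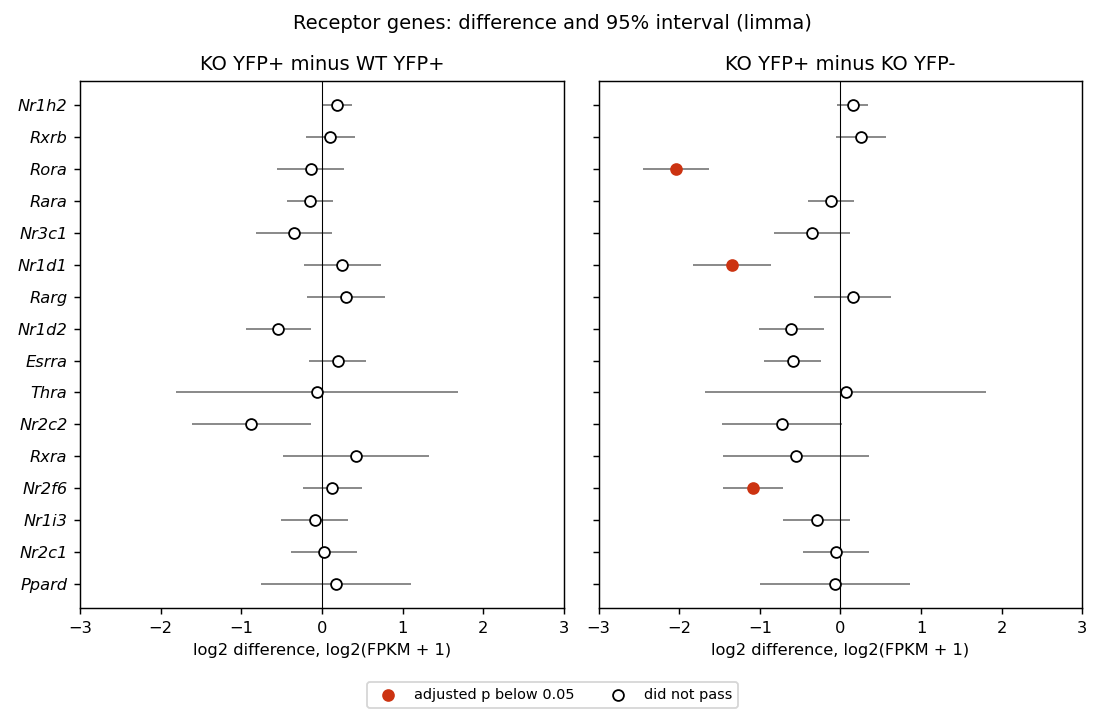
Log2 difference of the 16 receptors past the floor on the log2(FPKM + 1) scale, with limma's 95% interval, for KO YFP+ minus WT YFP+ (left) and KO YFP+ minus KO YFP- (right); filled points passed at an adjusted p of 0.05. No receptor passed on the left, and Rora, Nr1d1 and Nr2f6 were lower in KO YFP+ on the right.

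The second comparison set the YFP+ against the YFP- Tregs of the KO mice. Ncoa3 itself differed between these 2 groups, by -1.52 (SE 0.158, limma adjusted p = 0.00503), so the sort and the loss of Ncoa3 cannot be told apart in it. Of the 16 receptors, 3 passed, Rora, Nr1d1 and Nr2f6, all lower in KO YFP+, where 4.90% of all genes tested passed and 3.46% were lower. The median log2 difference was -0.32 over the receptors and -0.02 over all genes tested. The same 3 genes were lower in KO YFP+ than in SRC-3ff together with Nr1d2 (4 of 16, where 10.2% of all genes passed and 6.09% were lower), and the comparison of WT YFP+ with SRC-3ff gave them as lower in WT YFP+ (3 of 16, where 9.22% passed and 5.49% were lower). They were also higher in KO YFP- than in WT YFP+ together with Esrra (4 of 16, where 9.27% passed and 5.90% were higher). These 4 comparisons share libraries, so they do not count as separate evidence, and in bulk RNA fewer cells of a type cannot be told apart from less RNA per cell.

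Rora encodes ROR alpha, an orphan receptor that activates clock genes and is known in mice from type 17 helper T cells, innate lymphoid cells and Tregs of skin (ENSMUSG00000032238, GRCm38 chromosome 9, 68653786 to 69388246, plus strand). It was at 9.99 and 12.2 FPKM in WT YFP+, 9.86 and 10.0 in KO YFP+, 42.3 and 45.9 in KO YFP- and, for SRC-3ff, 32.1 and 45.0. All 4 YFP+ libraries lay far below the other 4, with no overlap, while WT YFP+ overlapped KO YFP+ and KO YFP- overlapped SRC-3ff. The log2 difference was -2.04 for KO YFP+ minus KO YFP- (SE 0.173, limma adjusted p = 0.00352) and -1.69 for WT YFP+ minus SRC-3ff (adjusted p = 0.00253). Between KO YFP+ and WT YFP+ it was -0.14 (95% interval -0.55 to 0.27, limma adjusted p = 0.832), and between KO YFP- and SRC-3ff it was 0.21 (adjusted p = 0.562).

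Nr1d1 encodes REV-ERB alpha, the repressor that competes with ROR alpha for the same DNA elements and holds down Arntl (ENSMUSG00000020889, GRCm38 chromosome 11, 98767932 to 98775333, minus strand). It stood at 3.52 and 4.31 FPKM in WT YFP+, 4.86 and 4.82 in KO YFP+, 12.8 and 15.0 in KO YFP- and, for SRC-3ff, 22.0 and 32.8. The YFP+ libraries were again the lowest 4, and SRC-3ff was above KO YFP- without overlap. The log2 difference was -1.35 for KO YFP+ minus KO YFP- (SE 0.202, limma adjusted p = 0.0158) and -2.51 for WT YFP+ minus SRC-3ff (adjusted p = 0.00123), while for KO YFP+ minus WT YFP+ it was 0.25 (95% interval -0.23 to 0.73, adjusted p = 0.72). KO YFP- minus SRC-3ff came to -0.91 and did not pass (limma adjusted p = 0.0998).

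The 2 REV-ERB genes did not keep one ratio across the groups. Nr1d1 was 0.391 and 0.401 times Nr1d2 in WT YFP+, 0.718 and 0.786 times in KO YFP+, 1.33 and 1.35 times in KO YFP-, and 1.77 and 2.01 times in SRC-3ff. With 2 libraries a group, these ranges did not overlap between the 4 groups. The ratio was not tested, and how often other pairs of genes separate in this way was not counted. Nr1d2 passed in KO YFP+ minus SRC-3ff with a log2 difference of -1.04 (SE 0.169, limma adjusted p = 0.0164) and in no other comparison. The 3' ends of Nr1d1 and Thra overlap on opposite strands over 263 exon bases, 8.55% of those of Nr1d1. Thra itself varied widely within both KO groups, at 6.52 and 1.97 FPKM in KO YFP+ and 1.02 and 9.09 FPKM in KO YFP-. It varied less in WT YFP+ (3.38 and 4.53 FPKM) and SRC-3ff (8.99 and 8.25 FPKM). In the 2 KO YFP- libraries Nr1d1 was at 12.8 and 15.0 FPKM.

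Nr2f6 encodes EAR2, an orphan receptor of the COUP-TF family that represses cytokine genes in mouse T cells (ENSMUSG00000002393, GRCm38 chromosome 8, 71374123 to 71381960, minus strand). Its levels were low, at 1.59 and 1.83 FPKM in WT YFP+, 2.08 and 1.85 in KO YFP+, 5.48 and 5.09 in KO YFP- and, for SRC-3ff, 4.32 and 4.62. The YFP+ libraries were the lowest 4 for this gene too. The log2 difference was -1.08 for KO YFP+ minus KO YFP- (SE 0.155, limma adjusted p = 0.0134) and 1.21 for KO YFP- minus WT YFP+ (adjusted p = 0.00541). Over 1622 bases, 54.4% of its exon length, Nr2f6 lies opposite exons of Ocel1, so the counts of the pair are uncertain. Ocel1 itself was at 6.04 to 12.7 FPKM and passed in none of the 6 comparisons, with a log2 difference of 0.09 for KO YFP+ minus KO YFP- (limma adjusted p = 0.89).

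The promoters of Rora, Nr1d1 and Nr2f6 are shown because these 3 genes passed in the same 4 comparisons. That of Nr1d2 is shown because its ratio to Nr1d1 is described above. Each window runs from 250 bases before to 50 after the RefSeq transcript start on GRCm38.p6, on the gene's strand: chr9:68653536-68653835 (plus) for Rora, chr11:98775328-98775627 (minus) for Nr1d1, chr8:71381903-71382202 (minus) for Nr2f6 and chr14:18239057-18239356 (minus) for Nr1d2. FPKM per gene do not show which transcript start was in use in these cells. Capitals mark the nuclear receptor half-site AGGTCA.
Rora: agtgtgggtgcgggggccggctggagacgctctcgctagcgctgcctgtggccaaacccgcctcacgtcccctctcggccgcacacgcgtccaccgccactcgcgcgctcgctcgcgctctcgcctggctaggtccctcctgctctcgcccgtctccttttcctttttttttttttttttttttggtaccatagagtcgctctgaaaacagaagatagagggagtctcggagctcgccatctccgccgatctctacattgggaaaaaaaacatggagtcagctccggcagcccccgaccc
Nr1d1: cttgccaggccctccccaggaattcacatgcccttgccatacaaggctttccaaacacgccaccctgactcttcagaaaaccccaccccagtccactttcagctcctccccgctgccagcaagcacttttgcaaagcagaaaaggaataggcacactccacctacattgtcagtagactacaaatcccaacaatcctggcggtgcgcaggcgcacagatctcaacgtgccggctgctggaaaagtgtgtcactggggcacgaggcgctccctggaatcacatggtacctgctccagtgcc
Nr2f6: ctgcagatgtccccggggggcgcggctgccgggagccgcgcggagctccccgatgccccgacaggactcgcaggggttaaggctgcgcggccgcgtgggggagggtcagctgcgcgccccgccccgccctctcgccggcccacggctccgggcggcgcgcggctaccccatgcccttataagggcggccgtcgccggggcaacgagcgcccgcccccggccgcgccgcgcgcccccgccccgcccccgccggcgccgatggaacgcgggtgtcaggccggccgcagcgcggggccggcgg
Nr1d2: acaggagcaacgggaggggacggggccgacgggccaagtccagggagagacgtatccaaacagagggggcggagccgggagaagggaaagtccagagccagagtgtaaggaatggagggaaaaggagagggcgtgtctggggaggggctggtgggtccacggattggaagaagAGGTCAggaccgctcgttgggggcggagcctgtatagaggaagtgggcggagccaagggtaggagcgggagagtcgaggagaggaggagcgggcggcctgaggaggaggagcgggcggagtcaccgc
On both strands, AGGTCA was found 1 time in the Nr1d2 window, starting 77 bases before the transcript start, and not in the other 3. The same letters were present in 16.3% of 32841 windows of the same length and in 12 of the 58 windows of 38 receptor genes. Neither AGAACA (the glucocorticoid half-site, in 19% of all windows) nor CACGTG (the E-box bound by CLOCK and ARNTL, in 7.15%) was found in these 4 windows. The windows differed in base composition, with 60.3% G and C for Rora, 56.3% for Nr1d1, 82.7% for Nr2f6 and 65.7% for Nr1d2, beside a median of 52.7% over all windows.

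**Figure D3:**
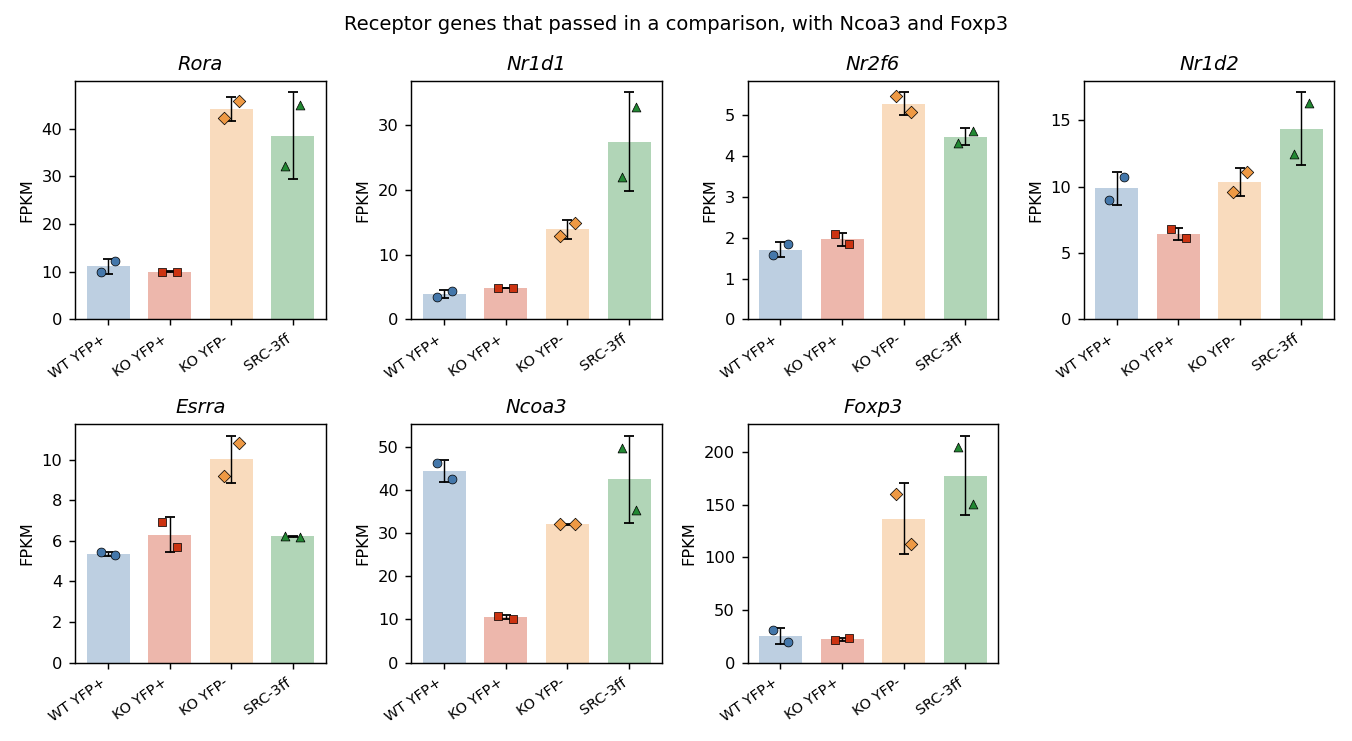
Level (FPKM) of the 5 receptors that passed in at least 1 comparison, with Ncoa3 and Foxp3, by group; bars are means, error bars are SD (n = 2) and points are libraries. Rora, Nr1d1 and Nr2f6 have their lowest points in the YFP+ groups, and Ncoa3 is low in KO YFP+.

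Esrra, which encodes ERR alpha, an orphan receptor that drives genes of mitochondrial energy metabolism (ENSMUSG00000024955, GRCm38 chromosome 19, 6910977 to 6921813, minus strand), was highest in the YFP- Tregs. It was at 5.45 and 5.30 FPKM in WT YFP+, 6.93 and 5.71 in KO YFP+, 9.21 and 10.9 in KO YFP- and, for SRC-3ff, 6.25 and 6.21. Both KO YFP- libraries were above the other 6. The log2 difference passed only for KO YFP- minus WT YFP+, at 0.79 (SE 0.148, limma adjusted p = 0.0215). It was 0.61 for KO YFP- minus SRC-3ff (adjusted p = 0.118) and -0.59 for KO YFP+ minus KO YFP- (limma adjusted p = 0.0751).

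No receptor passed between KO YFP- and SRC-3ff (0 of 16 with limma, where 0.644% of all genes tested passed). At an unadjusted p below 0.05 there were 3, Esrra, Nr1d1 and Nr1d2, where 18.3% of all genes were. Over all 8 libraries, 4 of the 16 receptors (Rora, Nr1d1, Nr2f6 and Rxra) had every YFP+ library below every other library, as did 10.9% of all genes tested. None had the opposite order, which 6.86% of all genes did. Rxra was at 0.924 and 3.33 FPKM in WT YFP+, 3.11 and 2.63 in KO YFP+, 5.34 and 4.08 in KO YFP- and, for SRC-3ff, 4.05 and 6.15, and passed in none of the 6 comparisons.

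Foxp3 and the summed NK, gamma delta T and plasma cell markers were also lower in the YFP+ libraries, while the Treg markers did not share one direction. For Foxp3 the log2 difference of KO YFP+ minus KO YFP- was -2.57 (SE 0.257, limma adjusted p = 0.0047). For Il2ra and Ikzf4 it was 1.11 (limma adjusted p = 0.00604) and 1.10 (adjusted p = 0.0134), higher in KO YFP+, and the other 5 Treg markers did not pass. The summed NK cell markers were 44.0 to 62.3 FPKM in KO YFP+ and 294 to 495 FPKM in KO YFP-, and gamma delta T cell markers 2.16 to 2.51 against 46.2 to 55.2 FPKM. Their part in the levels of Rora, Nr1d1 and Nr2f6 was not tested. With 2 libraries a group, the calls of Nr1d1 and Nr2f6 in KO YFP+ minus KO YFP- each ended when any 1 of those 4 libraries was left out, giving 1 receptor (Rora) in place of 3. The calls of Nr1d2 and Nr2f6 in KO YFP+ minus SRC-3ff ended without KO YFP+ 84, KO YFP+ 85 or SRC-3ff 72, leaving 2 in place of 4. That of Nr2f6 also ended there without SRC-3ff 68, and in WT YFP+ minus SRC-3ff without WT YFP+ 23 or SRC-3ff 72. The call of Esrra ended without any 1 of its 4 libraries.

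Known target genes of the receptors were taken as lists, to set beside the receptors' own levels. Glucocorticoid targets (11 of 12 tested) did not pass in KO YFP+ minus WT YFP+ with limma (0.757% of all genes did). There were 3 at an unadjusted p below 0.05, where 10.4% of all genes were, and the median log2 difference was -0.07. In KO YFP+ minus KO YFP-, 2 were lower, Fkbp5 and Zbtb16, where 4.90% of all genes passed and 3.46% were lower. In KO YFP- minus WT YFP+ there were 2 higher (the same 2) and 2 lower, Tsc22d3 and Dusp1, where 9.27% of all genes passed. In WT YFP+ minus SRC-3ff 3 were lower, Fkbp5, Zbtb16 and Sgk1, where 5.49% of all genes were. KO YFP+ minus SRC-3ff had 4 lower, these 3 and Dusp1 (6.09% of all genes were), with a median of -0.39 over the list beside -0.02 over all genes. KO YFP- minus SRC-3ff had 1 lower, Dusp1 (0.644% of all genes passed), a call that held in 3 of 15 alternatives and was lost without any 1 of the 8 libraries, which leaves 0. The calls of Fkbp5 held in all alternatives, while Dusp1 in KO YFP- minus WT YFP+ held in 5 of 15 and Sgk1 in KO YFP+ minus SRC-3ff in 4 of 15.

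Fkbp5, a co-chaperone of the glucocorticoid receptor and a classic glucocorticoid target, was at 12.3 and 11.8 FPKM in WT YFP+, 12.6 and 12.5 in KO YFP+, 28.1 and 26.7 in KO YFP- and, for SRC-3ff, 38.1 and 44.3. The YFP+ libraries were the lowest 4, with a log2 difference of -1.07 for KO YFP+ minus KO YFP- (SE 0.108, limma adjusted p = 0.00474). Tsc22d3, which encodes the glucocorticoid-induced leucine zipper protein GILZ, had another order, at 151 and 280 FPKM in WT YFP+, 102 and 140 in KO YFP+, 57.8 and 69.1 in KO YFP- and, for SRC-3ff, 158 and 166. It was lowest in KO YFP-, with a log2 difference of -1.69 from WT YFP+ (limma adjusted p = 0.0152; lost without either KO YFP- library), so 2 targets of one receptor ran in opposite directions in that comparison. Zbtb16 (the transcription factor PLZF, also a marker of innate-like T cells) was at 0 to 0.0981 FPKM in the YFP+ libraries and 5.11 to 18.01 FPKM in the others. Of the 11 chaperones and cochaperones of steroid receptors, all tested, Fkbp5 was the 1 that passed in any comparison. The share of all genes passing where it did was 4.90% (KO YFP+ minus KO YFP-), 10.2% (KO YFP+ minus SRC-3ff), 9.27% (KO YFP- minus WT YFP+) and 9.22% (WT YFP+ minus SRC-3ff).

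Of the genes for retinoid metabolism and retinoid targets, 7 of 16 were tested. None passed in KO YFP+ minus WT YFP+ or in KO YFP- minus SRC-3ff with limma. There were 2 and 3 at an unadjusted p below 0.05, where 10.4% and 18.3% of all genes were. Ccr9 (a gut-homing chemokine receptor induced by retinoic acid), Dhrs3 (a retinal reductase) and Hic1 (a transcriptional repressor) had lower levels in KO YFP+ when set against KO YFP- or SRC-3ff, and higher levels in KO YFP- when set against WT YFP+, 3 of 7 in each. The share of all genes that passed in these was 4.90% for KO YFP+ minus KO YFP-, 10.2% for KO YFP+ minus SRC-3ff and 9.27% for KO YFP- minus WT YFP+. Ccr9 was at 1.68 and 2.00 FPKM in WT YFP+, 0.553 and 0.259 in KO YFP+, 7.98 and 13.1 in KO YFP- and, for SRC-3ff, 7.12 and 5.69, with a log2 difference of -3.01 for KO YFP+ minus KO YFP- (limma adjusted p = 0.00352). KO YFP+ held its lowest levels. Dhrs3 was at 1.48 to 2.39 FPKM in the YFP+ libraries and 5.25 to 11.8 FPKM in the others, and WT YFP+ minus SRC-3ff had both Dhrs3 and Ccr9 lower (2 of 7, where 5.49% of all genes were). Ccr9 held under all alternatives in the first 3 of these comparisons, whereas Hic1 against SRC-3ff was lost without any 1 of the 4 libraries compared, and Dhrs3 against KO YFP- without either KO YFP+ library and without KO YFP- 84. In KO YFP- minus WT YFP+, both were lost without WT YFP+ 23 or 24, and Ccr9 in WT YFP+ minus SRC-3ff without any 1 of its 4 libraries. The receptor Rara, by comparison, stayed within 21.7 to 30.3 FPKM.

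LXR targets (8 of 10 tested) gave no call in KO YFP+ minus WT YFP+, KO YFP+ minus KO YFP- or KO YFP- minus SRC-3ff with limma. At an unadjusted p below 0.05 there were 1, 5 and 0, where 10.4% of all genes were in the first and 18.3% in the last. For KO YFP+ minus KO YFP- that share is not given here, so its 5 cannot be weighed. The median log2 difference there was -0.19 over the list and -0.02 over all genes. In KO YFP- minus WT YFP+, Smpdl3a (a phosphodiesterase) was higher and Abcg1 (a cholesterol exporter) lower, where 9.27% of all genes passed. WT YFP+ minus SRC-3ff had Abcg1 higher and Smpdl3a lower, where 9.22% passed. Abcg1 was at 14.4 and 13.3 FPKM in WT YFP+, 10.8 and 10.2 in KO YFP+, 9.52 and 8.96 in KO YFP- and, for SRC-3ff, 8.48 and 9.15. In KO YFP+ minus SRC-3ff, 1 was lower, Lpcat3 (a phospholipid-remodelling acyltransferase), at -0.72 (limma adjusted p = 0.0319), where 6.09% of all genes were. Each of these LXR target calls was lost without at least 3 of the 8 libraries taken singly, and Abcg1 in KO YFP- minus WT YFP+ without any 1 of the 8. Of the PPAR targets, 8 of 12 were tested and 1 passed in 1 comparison, Plin2 (a lipid droplet coat protein). It was at -0.78 in WT YFP+ minus SRC-3ff (limma adjusted p = 0.0384), where 9.22% of all genes passed and 5.49% were lower. The call held in 8 of 15 alternatives. Of 8 vitamin D, thyroid and estrogen genes, 1 was tested, Hsd11b1 (the enzyme that reactivates glucocorticoids), at 32.1 to 50.7 FPKM, and it did not pass.

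Of the other clock genes, 11 of 15 were tested. None passed in KO YFP+ minus WT YFP+ (median log2 difference -0.0042) or in KO YFP- minus SRC-3ff with limma. Each had 2 at an unadjusted p below 0.05, where 10.4% and 18.3% of all genes were. In KO YFP+ minus KO YFP-, where 3.46% of all genes were lower, 2 were lower, Bhlhe40 (a clock repressor and T cell cytokine regulator) and Arntl (BMAL1, the clock activator that ROR alpha raises and REV-ERB alpha lowers). Arntl was at 11.95 and 8.28 FPKM in WT YFP+, 8.31 and 7.55 in KO YFP+, 19.0 and 14.1 in KO YFP- and, for SRC-3ff, 15.4 and 15.6, with a log2 difference of -0.96 (limma adjusted p = 0.0434). This call held in 5 of 15 alternatives (adjusted p 0.0363 to 0.196 over them) and was lost without any 1 of the 6 libraries of KO YFP+, KO YFP- and SRC-3ff. Its 4 YFP+ libraries were the lowest, as they were for both Rora and Nr1d1. Bhlhe40 was at 8.13 to 12.1 FPKM in the YFP+ libraries and 17.4 to 36.7 FPKM in the others. KO YFP+ minus SRC-3ff had 3 lower (Cry1, Bhlhe40 and Arntl) and 1 higher, Dbp, by 0.54 (limma adjusted p = 0.0476), where 10.2% of all genes passed. Dbp held in 4 of 15 alternatives and was lost without any 1 of the 8 libraries, as was Bhlhe40 in this comparison, which held in 5 of 15. KO YFP- minus WT YFP+ had 2 higher, Bhlhe40 and Nfil3 (5.90% of all genes were higher), and WT YFP+ minus SRC-3ff had 2 lower, Cry1 and Bhlhe40 (5.49% of all genes were lower). Bhlhe40 held in all 15 alternatives in the first of these, Nfil3 in 5, and in the second Cry1 held in 10 and Bhlhe40 in 11.

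**Figure D4:**
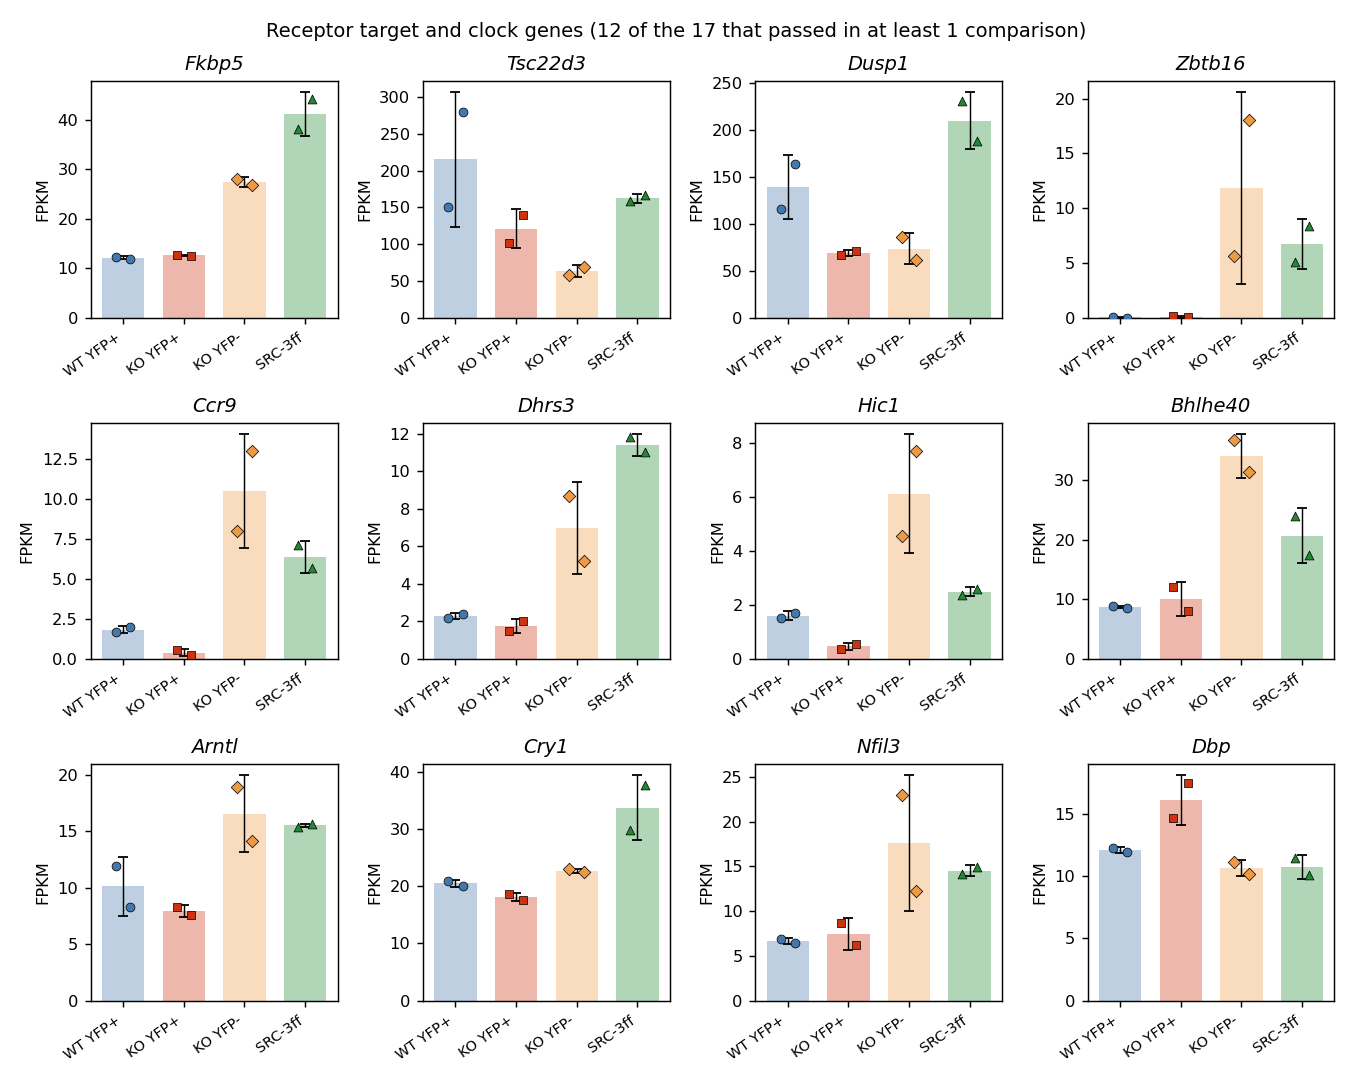
Level (FPKM) of 12 receptor target and clock genes that passed in at least 1 comparison, by group; bars are means, error bars are SD (n = 2) and points are libraries. Fkbp5, Zbtb16, Ccr9, Dhrs3 and Bhlhe40 are low in both YFP+ groups, while Tsc22d3 is lowest in KO YFP-.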

How the data were processed

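RNA-seq was measured in 8 libraries of splenic Tregs. The deposited FPKM of 55487 genes were made by the authors with Trim Galore, STAR and StringTie on mm10 (GRCm38), per the submitters' processing notes. Tool versions, annotation and strand use: not given in the sources used here. Read counts cannot be had from these FPKM, so depth is unknown and counting intervals were not computed.

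FPKM were used as deposited. limma 3.58.1 in R 4.3.3 (lmFit, eBayes with a trend) was fitted to log2(FPKM + 1) of the 14134 genes that reached 1 FPKM in 2 or more libraries, with 4 groups in 1 model and 6 comparisons. A fold change on this scale understates that of low genes. P-values were adjusted over all genes tested (Benjamini-Hochberg, threshold 0.05), and the script was tested on simulated data. An exact permutation test of 2 against 2 cannot go below 0.333, two-sided. The labels do not say that each library came from its own animal, so p-values measure the spread between libraries, which may be technical.

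The members and gene lists were chosen with earlier results of these data known. The text names Ncoa3 and Foxp3, every receptor, and from each list up to 4 passing genes with the smallest p per comparison. Coordinates are from GENCODE (GRCm38), which matched 55141 identifiers and not 346. Promoters are from RefSeq, with windows for 14 of the 16 expressed receptors (not Thra or Nr3c1). Alternatives were another pseudocount, 2 filters, 2 scalings, a fit of the compared libraries alone, the replicate block and leaving out each library. Tables and plots used Python 3.11.15, pandas 2.3.3 and matplotlib 3.10.9.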

Additional observations from a re-analysis of the deposited data

How the results depend on the processing

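Depth is unknown, so the precision of low genes such as Ppard and Nr2f6 cannot be separated from library spread. Of the 14 receptor calls, 8 held under all 15 alternatives and 6 were lost in at least 1. Leaving out 1 library, as 8 of the 15 do, leaves 1 library in its group, which is then assumed to vary like the other groups. Rora held in its 4 comparisons (adjusted p 0.00124 to 0.0349), Nr1d1 in 3 and Nr2f6 in KO YFP- minus WT YFP+. Leaving out 1 library gave 1 to 3 receptors in KO YFP+ minus KO YFP- and 2 to 4 in KO YFP+ minus SRC-3ff. With no filter on low values, Nr1d1 in KO YFP+ minus KO YFP- and Nr1d2 in KO YFP+ minus SRC-3ff were lost. With the compared libraries alone, Nr2f6 in KO YFP+ minus SRC-3ff and Esrra in KO YFP- minus WT YFP+ were lost, and without WT YFP+ 23 or SRC-3ff 72 Nr2f6 in WT YFP+ minus SRC-3ff (adjusted p up to 0.081). The cause was not tested. The other pseudocount, the 5 FPKM filter and both scalings lost no receptor call. The receptors past the floor numbered 13 at 5 FPKM and 16 at 0.5 FPKM.

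The libraries of KO YFP+ and KO YFP- share the numbers 84 and 85, which the labels do not say are the same mice, and the difference between the numbers had r = 0.137 across 14134 genes. With the replicate block the receptor counts were 0, 3, 4, 4, 0 and 3, as without it. Of 41 calls of list genes, 11 held under every alternative, 27 were lost with no filter on low values and 6 with the replicate block, among them Arntl in KO YFP+ minus KO YFP- and Dbp in KO YFP+ minus SRC-3ff.

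Among values that did not pass, some changed sign when 1 library was left out. The range was -0.48 to 0.14 for Foxp3 in KO YFP+ minus WT YFP+ (above 0 without WT YFP+ 23) and -0.11 to 0.13 for Esrra in KO YFP+ minus SRC-3ff (below 0 without KO YFP+ 84). It was -0.029 to 0.44 for Rora in KO YFP- minus SRC-3ff (below 0 without SRC-3ff 68) and -0.16 to 0.32 for Ncoa3 in WT YFP+ minus SRC-3ff (below 0 without SRC-3ff 72). Nr1d2 in KO YFP- minus WT YFP+ ranged from -0.049 to 0.18 (below 0 without WT YFP+ 23 or KO YFP- 85) and was -0.023 with quantile normalization.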
